A study of Homo sapiens with 8 samples.

Results

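The CDK inhibitor genes were CDKN1A, CDKN1B and CDKN1C of the CIP/KIP family, CDKN2A, CDKN2B, CDKN2C and CDKN2D of the INK4 family, and CDKN3. They were chosen by symbol, with earlier results of these data known, and all 8 were found among the 58233 genes of the count table. Cyclin-dependent kinases (CDKs) drive the cell cycle when bound to a cyclin, in part by phosphorylating RB and thereby freeing E2F factors. CIP/KIP proteins bind cyclin-CDK complexes, whereas INK4 proteins bind CDK4 and CDK6 and keep them from cyclin D. CDKN3 is a phosphatase that removes the activating phosphate of CDK2, and its mRNA is known as a marker of dividing cells, so it belongs to the family by name and target rather than by structure.

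The libraries came from MCF10A-Hras cells. MCF10A is an immortalized human breast epithelial line that does not form tumours by itself, and controls and knockout both carried the added H-Ras oncogene. RBM6 encodes an RNA-binding splicing regulator, and the RBM6-KO cells were 1 clone (KO1) that the study made with a pair of guides to exon 3 and the Cas9-D10A nickase, so a difference between genotypes cannot be told apart from a difference between this clone and the parental cells. The 4 groups were control untreated, control IR, RBM6-KO untreated and RBM6-KO IR, where IR was 5 Gy of X-rays followed by 12 h of recovery. Each group had 2 libraries, A and B, described as biological replicates, and whether they came from separate cultures is not given in the sources used here. With so few libraries a p-value measured only the spread between these samples.

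Counts on genes summed to 15355281 to 29832009 per library, and replicates had a Pearson r of 0.983 to 0.986 across 16549 genes. Control IR replicate B was the deepest library. RBM6 itself had 692 to 1520 counts in every library, 66.8 and 68.7 normalized CPM (counts scaled by the TMM-normalized size of their library) in untreated control cells and 61.4 and 63.1 in untreated RBM6-KO cells. After IR it had 54.4 and 48.9 CPM in control cells and 43.97 and 33.9 in RBM6-KO cells, and counts per gene do not show the exon 3 lesion. All 11 basal breast epithelium markers exceeded 1 CPM in every library, and 3 of 7 luminal markers (ESR1, PGR and KRT19) stayed under 1 CPM. The other 4 luminal markers exceeded 1 CPM in every library. They were KRT8 (195 to 328 CPM), KRT18 (147 to 398), GATA3 (11.3 to 17.5) and FOXA1 (2.15 to 5.08). Of 14 markers of other cell types, 10 stayed under 1 CPM in all libraries, CD3E and HBB were at 0, and only COL1A1 and PECAM1 exceeded 1 CPM throughout. Their summed level in control cells was 17.3 to 20.0 CPM untreated and 16.1 to 16.4 irradiated, and in RBM6-KO cells 14.7 to 15.7 untreated and 11.3 to 11.7 irradiated. The luminal sum was 700 to 747 CPM and 447 to 632 in control cells, and 445 to 561 and 356 to 431 in RBM6-KO cells. The basal sum was 13007 to 15738 CPM untreated and 12246 to 13189 irradiated in control cells. In RBM6-KO cells it was 12007 to 12248 untreated and 10311 to 10742 irradiated. These sums moved with both factors, and their part in the results was not tested. In bulk RNA, fewer cells expressing a gene and less of its RNA per cell cannot be told apart.

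CDKN1A was by far the most abundant family member and CDKN3 came next, while CDKN2A and CDKN2B had no counts at all. Levels of different genes were compared per length, as normalized CPM per kb of annotated exon (the union of all GENCODE v44 exons, a length that also counts exons these cells may not use). In untreated control cells the mean level per kb was 153 for CDKN1A, 21.4 for CDKN3, 7.80 for CDKN2D, 4.47 for CDKN2C, 2.77 for CDKN1B and 2.26 for CDKN1C. The ranges of the 2 libraries did not overlap between any neighbours in this order. In the other groups CDKN1A, CDKN3 and CDKN2D kept the top places in that order, but the lower places were closer. In control cells after IR the ranges of CDKN1B (mean 3.18 CPM per kb) and CDKN2C (3.01) overlapped. In untreated RBM6-KO cells CDKN2D (5.45), CDKN2C (4.77) and CDKN1C (4.25) overlapped as neighbours, and CDKN1B was the lowest of the detected members at 1.80. In RBM6-KO cells after IR the ranges of CDKN1C (3.44), CDKN2C (2.91) and CDKN1B (2.68) overlapped from neighbour to neighbour.

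**Figure D1:**
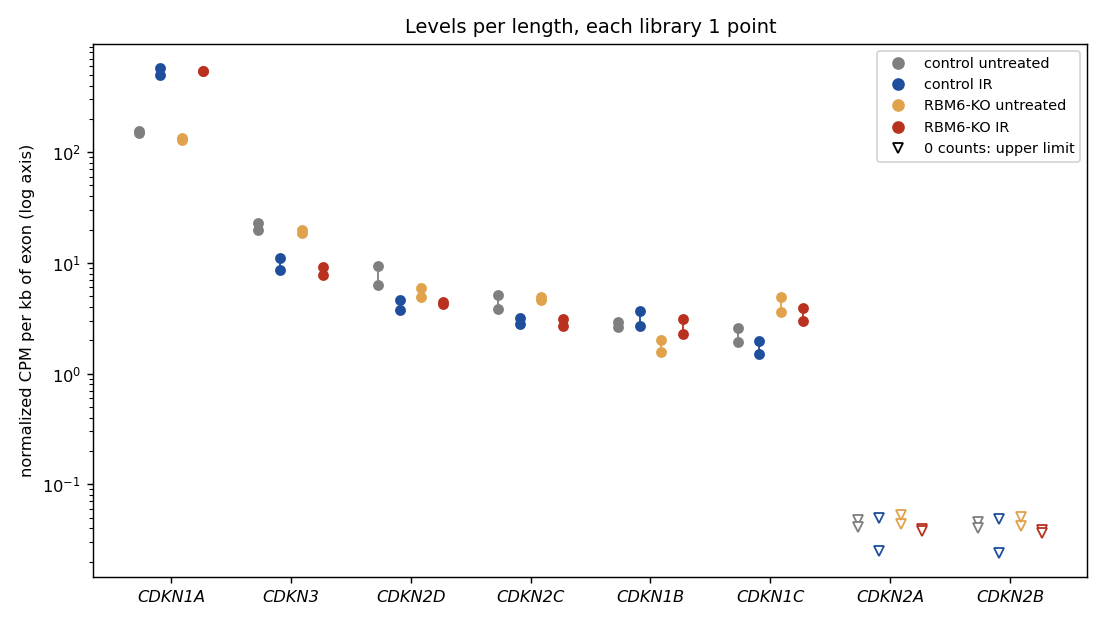
Level of each CDK inhibitor gene in normalized CPM per kb of exon (log axis), with 1 point per library coloured by group and a line joining the 2 libraries of a group. CDKN1A lies above all others in every library, with means of 153 in untreated control cells and 537 after IR, and the open triangles of CDKN2A and CDKN2B mark the upper limit that 0 counts allow.

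The sequences upstream of the 2 members with the largest changes after IR are shown because these genes moved in opposite directions. They are the 250 bases before the RefSeq start (GRCh38.p14), printed 5′ to 3′ on the strand of the gene. For CDKN1A this was chr6:36678464-36678713 on the plus strand and for CDKN3 chr14:54396757-54397006 on the plus strand. Capitals mark matches to the motifs searched.
CDKN1A: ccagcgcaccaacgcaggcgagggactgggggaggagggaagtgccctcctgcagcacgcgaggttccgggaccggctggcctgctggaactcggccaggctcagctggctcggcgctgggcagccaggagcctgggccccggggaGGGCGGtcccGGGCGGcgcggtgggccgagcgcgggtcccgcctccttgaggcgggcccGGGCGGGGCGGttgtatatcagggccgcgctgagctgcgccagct
CDKN3: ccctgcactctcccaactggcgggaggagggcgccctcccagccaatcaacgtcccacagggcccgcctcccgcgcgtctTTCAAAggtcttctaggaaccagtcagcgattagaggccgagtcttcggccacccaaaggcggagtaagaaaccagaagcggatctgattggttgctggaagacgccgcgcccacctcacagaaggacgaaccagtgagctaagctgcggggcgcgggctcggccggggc
The motifs reported were the CHR element TTTGAA (cell-cycle genes homology region), the E2F motifs TTTCCCGC and TTTGGCGC, the TATA box TATAAA and the GC box GGGCGG, each on both strands. CDKN1A held 4 GC boxes on the printed strand, the last pair sharing 1 base, and CDKN3 held 1 CHR element on the opposite strand (TTCAAA as printed), at positions -170 to -165 counted back from the start. Of the 35116 upstream windows of the RefSeq table, 42.6% held a GC box, 13.3% a CHR element, 10.7% a TATA box, and 1.39% and 0.550% the E2F motifs. Of the 8 members, 7 had an entry in this table, and CDKN1C did not. No window of these 7 held an E2F motif or a TATA box, and the CHR element was found only upstream of CDKN3. GC boxes were also found upstream of CDKN1B, CDKN2A, CDKN2B, CDKN2C and CDKN2D. A match is a description of letters and not of binding.

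The first question was which inhibitors responded to IR in each genotype. CDKN1A rose and CDKN3 fell in both genotypes. Of the 8 members, 6 had enough counts to be tested, and 1 was called higher and 1 lower in control cells, where 3.59% of the 15412 genes tested were called. The numbers were the same in RBM6-KO cells, where 3.11% of 15598 genes were called. A gene was called at a Benjamini-Hochberg adjusted p under 0.05 from edgeR's quasi-likelihood test with at least a 2-fold change. The direction of each call can be read against 1.68% of genes called higher and 1.91% lower in control cells, and 1.13% and 1.97% in RBM6-KO cells. The median log2 fold change of the 6 tested members was -0.49 in control cells, beside 0.02 over all genes tested, and -0.33 in RBM6-KO cells, beside -0.01.

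CDKN1A (ENSG00000124762, GRCh38 chromosome 6, 36676460 to 36687337, plus strand) encodes p21, the CDK inhibitor best known for the G1 arrest after DNA damage. It had 469 and 448 normalized CPM in untreated control cells and 1717 and 1498 after IR. In RBM6-KO cells it had 402 and 382 CPM untreated and 1605 and 1609 after IR. Every irradiated library lay more than 2-fold above every untreated library, and the 2 genotypes overlapped after IR. The log2 fold change of IR was 1.80 (SE 0.17, adjusted p = 0.000536 from edgeR), or 3.48-fold, in control cells, where only 6 genes had a smaller p. It was 2.02 (SE 0.14, adjusted p = 0.00051 from edgeR), or 4.05-fold, in RBM6-KO cells, the second smallest p there. Among all genes of the count table, CDKN1A ranked 259 to 342 by CPM in the untreated libraries and 53 to 61 after IR. Its part of the summed level per kb of the family was 78.0% to 80.0% in the untreated libraries and 95.9% to 96.3% after IR. The antisense lncRNA DINOL, not analysed here, shares 146 exon bases with CDKN1A, and since no source states whether the counting used strand, reads there cannot be told apart.

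CDKN3 (ENSG00000100526, chromosome 14, 54396849 to 54420218, plus strand) had 41.99 and 36.2 CPM in untreated control cells and 20.2 and 15.8 after IR. In RBM6-KO cells the values were 34.0 and 35.9 untreated and 16.7 and 14.3 after IR. The irradiated libraries of both genotypes lay below all untreated libraries, without overlap. The log2 fold change of IR was -1.13 (SE 0.21, adjusted p = 0.0153 from edgeR), 2.19-fold lower, in control cells and -1.19 (SE 0.18, adjusted p = 0.0144 from edgeR), 2.28-fold lower, in RBM6-KO cells. The control call rested on single libraries: without control untreated replicate A the adjusted p was 0.0799, and without control IR replicate B the log2 fold change was -0.96. Against a null of a 2-fold change, CDKN3 was called in neither genotype.

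CDKN1B (ENSG00000111276, chromosome 12, 12685498 to 12722369, plus strand) encodes p27, which holds CDK2 inactive in quiescent cells and is regulated largely by protein turnover. Control cells had 27.0 and 24.4 CPM untreated and 24.8 and 34.1 irradiated, and RBM6-KO cells had 18.7 and 14.6 untreated and 21.0 and 28.7 irradiated. The groups overlapped in control cells, and in RBM6-KO cells both irradiated libraries were above both untreated ones. The log2 fold change of IR was 0.19 (SE 0.22, adjusted p = 0.608 from edgeR) in control cells and 0.56 (SE 0.22, adjusted p = 0.13) in RBM6-KO cells, and neither was called. The control value was -0.05 once trends in GC content, length and expression were removed, and -0.06 without control IR replicate B.

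CDKN1C (ENSG00000129757, chromosome 11, 2883213 to 2885775, minus strand) encodes p57, an imprinted inhibitor expressed from the maternal copy. It was scarce, with 75 to 188 counts per library. It had 4.78 and 6.43 CPM in untreated control cells and 4.85 and 3.76 after IR, and 8.94 and 12.2 in untreated RBM6-KO cells and 9.69 and 7.39 after IR. The untreated and irradiated libraries overlapped within each genotype. The log2 fold change of IR was -0.41 (SE 0.29, adjusted p = 0.402 from edgeR) in control cells and -0.32 (SE 0.24, adjusted p = 0.401) in RBM6-KO cells, and with the trends in GC content, length and expression removed they were -0.13 and -0.06.

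The detected INK4 genes had lower values after IR in both genotypes, but none was called. CDKN2C (ENSG00000123080, chromosome 1, 50960745 to 50974634, plus strand) encodes p18. It had 15.3 and 11.6 CPM in untreated control cells and 9.63 and 8.52 after IR, and 13.8 and 14.9 in untreated RBM6-KO cells and 9.48 and 8.07 after IR. All irradiated libraries were below all untreated ones. Its log2 fold change was -0.58 (SE 0.25, adjusted p = 0.17 from edgeR) in control cells and -0.73 (SE 0.20, adjusted p = 0.062) in RBM6-KO cells. An unnamed antisense lncRNA (ENSG00000290102), not analysed here, shares 617 exon bases with CDKN2C, and the reads cannot be told apart without strand.

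CDKN2D (ENSG00000129355, chromosome 19, 10566460 to 10569059, minus strand) encodes p19. It had 9.44 and 14.0 CPM in untreated control cells and 6.92 and 5.66 after IR, and 8.995 and 7.41 in untreated RBM6-KO cells and 6.70 and 6.36 after IR. All irradiated libraries were again below all untreated ones, and control untreated replicate B was the highest. The log2 fold change of IR was -0.92 (SE 0.27, adjusted p = 0.0675 from edgeR) in control cells and -0.35 (SE 0.23, adjusted p = 0.324) in RBM6-KO cells. Without control IR replicate A the control change was called (-1.05, adjusted p = 0.00385 from edgeR), and without control untreated replicate B it was -0.60 (adjusted p = 0.574). In RBM6-KO cells the change was -0.04 with the trends in GC content, length and expression removed.

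With respect to spread alone, 4 of the 6 tested members (CDKN1A higher; CDKN2C, CDKN2D and CDKN3 lower) had groups that did not overlap in control cells, and CDKN1B joined them as higher in RBM6-KO cells. Among all 16549 genes the groups did not overlap for 28.5% higher and 27.8% lower in control cells, and for 31.7% and 29.5% in RBM6-KO cells. How many genes had no overlap between irradiated and untreated libraries of both genotypes together was not counted. In a contrast added after the data were seen, the IR effect averaged over both genotypes in 1 fit of all 8 libraries, CDKN1A (1.92, SE 0.09, adjusted p = 3.34e-06 from edgeR) and CDKN3 (-1.15, SE 0.13, adjusted p = 0.000751) were called, where 7.07% of genes were. CDKN2C (-0.64, SE 0.15, adjusted p = 0.0124) and CDKN2D (-0.62, SE 0.17, adjusted p = 0.0249) passed the adjusted p but were less than 2-fold lower, and 28.4% of genes passed the adjusted p alone in this contrast. CDKN1B (0.39, adjusted p = 0.0877) and CDKN1C (-0.35, adjusted p = 0.173) did not pass.

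**Figure D2:**
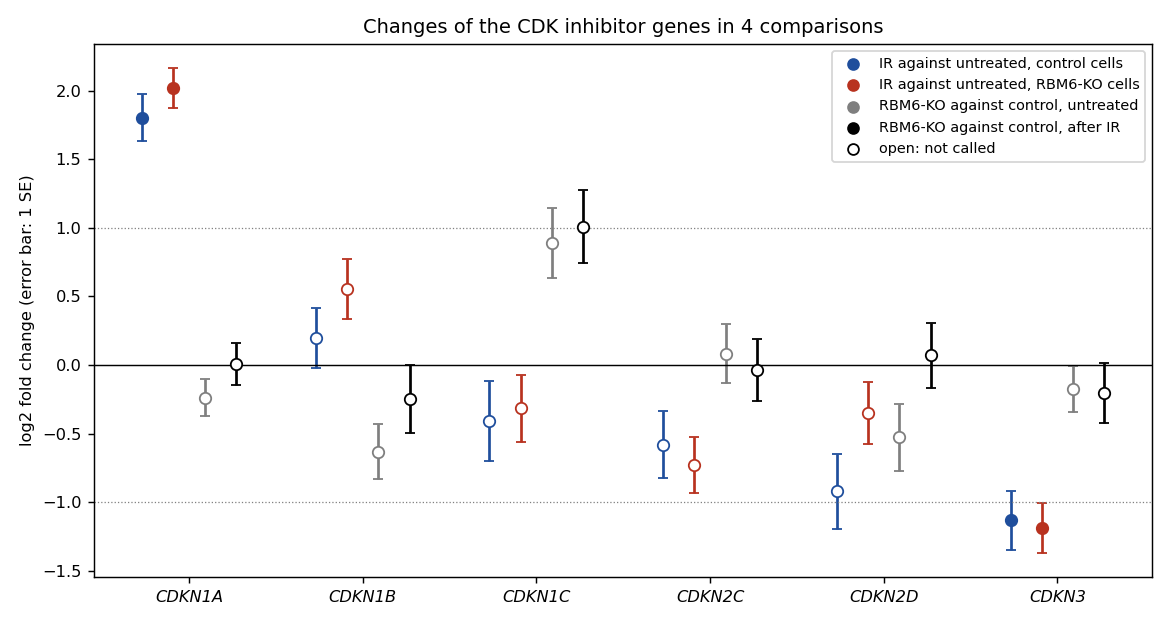
Log2 fold change of each detected CDK inhibitor gene in the 4 comparisons, with error bars of 1 SE and dotted lines at 2-fold. Filled points are called and open points are not; the 4 filled points are CDKN1A (1.80 and 2.02) and CDKN3 (-1.13 and -1.19) after IR, and the genotype values of CDKN1C lie at 0.89 and 1.01.

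The second question was whether the inhibitors differed between RBM6-KO and control cells. None of the 6 tested members was called in untreated cells, where 3.12% of 15556 genes were called, or after IR, where 1.17% of 15587 were. DESeq2 called none of them either, and 3 members in untreated cells and 1 after IR had an unadjusted p under 0.05 in edgeR, as did 18.4% and 11.1% of all genes tested. CDKN1C was the member closest to a call in both. All 4 of its RBM6-KO libraries (7.39 to 12.2 CPM) were above all 4 control libraries (3.76 to 6.43 CPM), without overlap. Within 1 treatment, 23.9% of 16549 genes in untreated cells and 18.6% after IR were higher without overlap. The share for both treatments together was not counted. The log2 fold change of CDKN1C in untreated cells was 0.89 (SE 0.26, adjusted p = 0.0464 from edgeR), 1.85-fold. There 6.12% of the genes tested passed the adjusted p alone, 2.38% in the higher direction. For CDKN1C the change passed the adjusted p but not the 2-fold limit. After IR it was 1.01 (SE 0.27, adjusted p = 0.171 from edgeR), 2.01-fold, which passed the 2-fold limit but not the adjusted p. Averaged over IR, again a contrast added after the data were seen, it was 0.95 (SE 0.19, adjusted p = 0.00953 from edgeR), and 8.68% of genes passed the adjusted p alone. These values leaned on single libraries. In untreated cells CDKN1C was called without control untreated replicate B (1.13) or without RBM6-KO untreated replicate A (1.08), but did not pass the adjusted p without control untreated replicate A (0.69, adjusted p = 0.171 from edgeR) or without RBM6-KO untreated replicate B (0.67, adjusted p = 0.207). With all libraries it also missed the adjusted p in DESeq2 (0.0677), with at least 10 counts in every library (0.0524) and with all 8 libraries in 1 fit (0.106). After IR it was called without control IR replicate A (1.18) or with no filter on low counts (1.02, adjusted p = 0.0215 from edgeR), and without RBM6-KO IR replicate A the adjusted p was 0.57 (0.79).

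The other members gave no call between genotypes. In untreated cells CDKN1B had a log2 fold change of -0.63 (SE 0.20, adjusted p = 0.0706 from edgeR), CDKN2D one of -0.53 (SE 0.25, adjusted p = 0.259) and CDKN1A one of -0.24 (SE 0.14, adjusted p = 0.382). The CDKN2D value was -0.20 without control untreated replicate B and -0.79 (adjusted p = 0.0567 from edgeR) without control untreated replicate A. For these 3 and for CDKN3 (-0.18, SE 0.17, adjusted p = 0.659) both RBM6-KO libraries were below both control libraries, whereas those of CDKN2C (0.08, SE 0.21) overlapped. Such a lack of overlap was common: 23.7% of 16549 genes were lower and 23.9% higher in this way. After IR the libraries of these 5 members overlapped between genotypes, with log2 fold changes of 0.01 for CDKN1A (SE 0.15, adjusted p = 0.996 from edgeR), -0.25 for CDKN1B (SE 0.25), -0.04 for CDKN2C (SE 0.22), 0.07 for CDKN2D (SE 0.24) and -0.20 for CDKN3 (SE 0.22). Over all genes 18.6% were higher and 19.9% lower without overlap after IR. The median log2 fold change of the 6 tested members was -0.21 in untreated cells, beside 0.01 over all genes tested, and -0.01 after IR, beside 0.02.

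The third question was whether the IR response itself differed between genotypes. The interaction, the log2 fold change in RBM6-KO cells minus that in control cells, was 0.22 for CDKN1A (SE 0.18), 0.37 for CDKN1B (SE 0.32), 0.10 for CDKN1C (SE 0.37), -0.14 for CDKN2C (SE 0.29), 0.58 for CDKN2D (SE 0.35) and -0.05 for CDKN3 (SE 0.26). All 6 had an adjusted p of 1 from edgeR, and the smallest unadjusted p was 0.121, for CDKN2D. No gene of the table was called by edgeR or by DESeq2 (1 was by edgeR with no filter on low counts), and 306 of 16549 genes (1.85%) had an unadjusted p under 0.05 in edgeR. With standard errors of 0.18 to 0.37, differences between genotypes of the size of the point estimates could not be resolved with 2 libraries per group.

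CDKN2A (ENSG00000147889, chromosome 9, 21967752 to 21995301, minus strand) encodes p16INK4a and, from another first exon, p14ARF, and CDKN2B (ENSG00000147883, chromosome 9, 22002903 to 22009305, minus strand) encodes p15. Both had 0 counts in all 8 libraries, out of 153266883 counts. A count of 0 allows up to 3 counts, or 0.0964 to 0.204 normalized CPM per library depending on depth, which covers counting error only. On the scale per kb the highest such limit was 0.0525 for CDKN2A and 0.0510 for CDKN2B, against a lowest value of any detected member of 1.52, that of CDKN1C in control IR replicate B. Neither gene could be tested in any comparison. The antisense lncRNA CDKN2B-AS1, which shares 593 exon bases with CDKN2A, was also at 0 in all libraries.

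Genes next to CDKN2A and CDKN2B were also at or near 0. From the start of MTAP to the end of CDKN2B-AS1 (chromosome 9, 21802636 to 22128103, or 325 kb), 12 of 14 annotated genes of the table were at 0 in every library. Of the exceptions, MTAP, which encodes a methionine salvage enzyme that most cells use, had 0 to 10 counts per library and 40 in all. The other, a pseudogene, had 2 to 11 counts per library and 35 in all. Its mean was 0.617 CPM per kb, beside 0.0180 for MTAP. Among these 14 genes only CDKN2A, CDKN2B and MTAP were protein-coding. Of all 60 annotated genes of the table within 1 Mb, 39 were at 0 in every library (65.0%). The share at 0 among genes of every type in the whole table was not counted. Within 1 Mb of either inhibitor, and counting both, 15 of 23 protein-coding genes were at 0 in all libraries (65.2%), compared with 15.5% of the protein-coding genes of chromosome 9 and 16.2% of those of the whole table. Of those 23 genes 16 encode interferons, which are rarely expressed without infection, and 13 of these were at 0, whereas IFNE had 8 to 35 counts per library. The zeros were thus 13 interferon genes and CDKN2A and CDKN2B themselves. Every other protein-coding gene within this distance had counts in at least 1 library, so the share of 65.2% does not describe them. On the side of the lower coordinates KLHL9 had 118 to 483 counts and FOCAD 421 to 1259 per library, and on the other side DMRTA1 had 5 to 44. HACD4, which lies between KLHL9 and FOCAD, had only 0 to 12 counts per library and 18 in all. Its mean of 0.0126 CPM per kb was below that of MTAP, so a level near 0 was not particular to the stretch around the inhibitors. As background, the MCF10A line is known to lack the CDKN2A and CDKN2B locus. Counts of RNA cannot tell a gene that is absent from one that is silent, and no DNA was analysed here.

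The list of CDK, cyclin and RB-E2F genes held kinases that these inhibitors bind and other cell-cycle genes around them. All 32 of the list were detected and tested. After IR 1 was called higher and 1 lower in control cells (1.68% and 1.91% of all genes), and 0 higher and 3 lower in RBM6-KO cells (1.13% and 1.97% of all genes). E2F2, an activating E2F factor, fell in both (-1.74, adjusted p = 0.0208 in control cells and -1.79, adjusted p = 0.0137 in RBM6-KO cells from edgeR). E2F7, a repressing E2F factor, rose in control cells (1.16, adjusted p = 0.034 from edgeR) and was not called in RBM6-KO cells (0.59, adjusted p = 0.21). E2F1 (-1.36) and CCNB2, the cyclin B2 gene (-1.12), fell in RBM6-KO cells. In control cells E2F1 (-0.95, adjusted p = 0.0428), CCNB2 (-0.78, adjusted p = 0.0247) and CCNB1 (-0.83, adjusted p = 0.0179) passed edgeR's adjusted p with less than a 2-fold change. So did PCNA, the replication clamp (0.86, adjusted p = 0.0216), and CCND2, a cyclin D gene (0.72, adjusted p = 0.0349). In RBM6-KO cells CCNB1 (-0.95, adjusted p = 0.0141 from edgeR) passed in the same way. The median log2 fold change of the list was 0.14 in control cells and -0.09 in RBM6-KO cells. Between genotypes no gene of this list was called by edgeR or DESeq2, and 8 in untreated cells and 1 after IR had an unadjusted p under 0.05 in edgeR (18.4% and 11.1% of all genes). In untreated cells CDC25B, a CDK-activating phosphatase (-0.68, adjusted p = 0.00442), CDK6, a kinase that INK4 proteins bind (0.66, adjusted p = 0.0374), and E2F1 (0.64, adjusted p = 0.0459) passed edgeR's adjusted p but not the 2-fold limit. After IR CDC25B (-0.59, adjusted p = 0.135), CCNB2 (-0.40, adjusted p = 0.454) and PCNA (-0.31, adjusted p = 0.554) had the smallest p-values and did not pass edgeR's test.

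Of 31 regulators known to act on CDK inhibitor transcription or alongside it, all tested, 4 were called higher after IR in control cells (1.68% of all genes) and 2 in RBM6-KO cells (1.13%), and none was called lower. BTG2, an antiproliferative gene, rose by 2.02 on the log2 scale in control cells (adjusted p = 0.000391 from edgeR) and by 1.98 in RBM6-KO cells (adjusted p = 0.00151). MDM2, which encodes a ubiquitin ligase, rose by 1.41 (adjusted p = 0.00388 from edgeR) and 1.23 (adjusted p = 0.00502). TP73 (1.999) and KLF4, a zinc-finger factor that acts on the CDKN1A promoter (1.72), rose in control cells. Neither was called in RBM6-KO cells, where TP73 was at 1.28 (adjusted p = 0.114 from edgeR) and KLF4 at 1.40 (adjusted p = 0.051). In RBM6-KO cells MYC passed edgeR's adjusted p with less than a 2-fold change (0.77, adjusted p = 0.0378). KLF6 (-0.68, adjusted p = 0.0391 from edgeR) and MYBL2 (-0.74, adjusted p = 0.0459) passed there as lower, also by less than 2-fold. KLF6 passed in the same way in control cells (-0.85, adjusted p = 0.0177 from edgeR). Whether TP73 and KLF4 responded differently in the 2 genotypes was tested by the interaction, which called no gene. The median log2 fold change of the list was 0.13 in control cells and 0.18 in RBM6-KO cells. Between genotypes edgeR called none of the 31, with 11 at an unadjusted p under 0.05 in untreated cells and 8 after IR (18.4% and 11.1% of all genes), and DESeq2 called 0 and 1. Of these genes EGR1 (-0.68), FOXO1 (0.60) and ID1 (-0.57) had the smallest p-values in untreated cells, with adjusted p of 0.0119 to 0.0181 from edgeR, and KLF6 (0.71), TP73 (-1.33) and TFAP2A (-0.48) after IR, with adjusted p of 0.0885 to 0.291. In the interaction CDC25A (-0.68, unadjusted p = 0.0196) had the smallest p of both lists.

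Finally, the genes whose log2 CPM followed the 2 responding members most closely over the 8 libraries were sought among 16416 genes. The libraries form treated and untreated pairs of groups, so a high r mainly records a like contrast, and it is given as a description. For CDKN1A the closest were ACTA2, a smooth muscle actin gene (r = 0.998), NECTIN4, a cell adhesion receptor (0.994), ASTN2 (0.993), APOBEC3F, a cytidine deaminase (0.992), and PLK3, a stress-responsive polo-like kinase (0.991). For CDKN3 they were UBE2S, an elongating E2 enzyme of the anaphase-promoting complex (0.996), MXD3 (0.995), PLK1, the mitotic polo-like kinase (0.995), PIF1, a DNA helicase (0.990), and TBC1D22A-DT (0.990). The mean level of PLK1 was 131 CPM in untreated libraries and 52.99 after IR, and that of NECTIN4 was 5.52 and 37.8. By Spearman's rho the order was less sharp, with 49 to 1179 genes reaching the rho of the genes named for CDKN1A and 71 to 194 for CDKN3.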

How the data were processed

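RNA-seq libraries were made by the study from control and RBM6-KO MCF10A-Hras cells with a TruSeq mRNA kit. Per the submitters' notes the authors used STAR, hg38 and DESeq2, and they deposited raw counts per Ensembl gene without normalization; the counting tool, annotation version and strand setting are not given in the sources used here. GENCODE v44 holds 57392 of the 58233 identifiers and gave symbols, positions and exon lengths.

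Tests used edgeR 4.0.16 under R 4.3.3 (TMM, filterByExpr, quasi-likelihood test), each comparison on its own 4 libraries and the interaction on all 8, with p-values adjusted over all genes tested. The SE is the size of the log2 fold change divided by the square root of F. Levels are CPM on 1 TMM scale over 8 libraries. A log2 CPM with a prior count of 2 gave the correlations. The scripts were tested on simulated data. The members, lists and contrasts were chosen with earlier results of these data known. All 8 members were named. Of each list the called genes were named, up to 6 per comparison, or the 3 smallest p-values where fewer than 3 were called. Genes that passed the adjusted p by less than 2-fold after IR were named in addition. Of the neighbourhood, protein-coding genes could be named, and the 5 closest genes by r. Alternatives were DESeq2 1.42.0, other normalizations, filters and thresholds, a replicate block, removal of GC, length and expression trends, and each library left out. Some genes and loci are not reported here.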

Additional observations from a re-analysis of the deposited data

How the results depend on the processing

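The precision rested on 2 libraries per group, and CDKN1C, CDKN2C and CDKN2D had 75 to 265 counts per library. Of 570 recomputed member values, 528 kept sign and call or, with trends removed, lay within 1 SE of the main value. Sign changes among the rest concerned values not called. With a test against a 2-fold change the number of CDK inhibitors called after IR was 1 in control cells and 1 in RBM6-KO cells in place of 2, since CDKN3 was lost. With the adjusted p alone 1 member (CDKN1C) passed between untreated genotypes in place of 0, and with no filter on low counts 1 (CDKN1C) was called after IR in place of 0. The causes were not tested. Leaving out 1 library, which assumes that the lone library of a group varies like the others, gave 0 to 1 called members between genotypes untreated, 0 to 1 after IR, 0 to 1 averaged over IR, and 1 to 3 for IR in control cells. The CDKN1A genotype value after IR (0.01) was -0.0035 with upper-quartile normalization and -0.00072 with all 8 libraries in 1 fit, and -0.10 to 0.10 with 1 library left out.

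With 1 library left out, values that crossed 0 ranged from -0.093 to 0.29 for CDKN2C between untreated genotypes and from -0.077 to 0.13 averaged over IR. After IR the genotype values ranged from -0.49 to 0.0024 for CDKN1B, -0.16 to 0.068 for CDKN2C and -0.084 to 0.20 for CDKN2D. The IR effect on CDKN1B in control cells ranged from -0.063 to 0.42. The interaction ranged from -0.14 to 0.32 for CDKN1C, -0.35 to 0.039 for CDKN2C and -0.19 to 0.13 for CDKN3. With trends in GC content, length and expression removed, the IR effect in control cells was 2.04 for CDKN1A, -0.05 for CDKN1B and -0.62 for CDKN2D, and in RBM6-KO cells 2.19 for CDKN1A, -0.06 for CDKN1C and -0.04 for CDKN2D.

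The labels do not say that a replicate letter marks a shared batch, and correlations of replicate deviations between groups ran from -0.28 to 0.35, the highest being that of control IR with RBM6-KO IR. With a replicate block the number of called CDK inhibitors was 0 between genotypes in each treatment, 2 for IR in each genotype and 0 for the interaction, as without it. It moved the adjusted p of CDKN1C between genotypes after IR from 0.171 to 0.00492 (log2 fold change 0.99) and that of CDKN1B between untreated genotypes from 0.0706 to 0.0198 (-0.64), both under 2-fold with the block. The number of genes called over the whole table changed more. Between genotypes after IR it was 182, and 46 with the test against a 2-fold change, 71 with at least 10 counts in every library, 319 with DESeq2, 340 with all 8 libraries in 1 fit, 506 with no filter and 541 with the replicate block. Between untreated genotypes it was 486, and 118 with the test against a 2-fold change and 952 with the adjusted p alone. For IR in control cells it was 553, and 17 with the test against a 2-fold change, 881 with the adjusted p alone and 962 with no filter, and for IR in RBM6-KO cells 485, and 12, 884 and 1011. Leaving out 1 library moved the last to 289 to 1563, lowest without RBM6-KO IR replicate B and highest without RBM6-KO IR replicate A, and the control count to 287 to 1406, lowest without control untreated replicate B and highest without control IR replicate A. The called CDK, cyclin and RB-E2F genes ranged from 0 to 7 for IR in the control line and from 0 to 6 in the knockout, and the called regulators from 1 to 5 in each.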

Other observations

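Averaged over both genotypes, a contrast added after the data were seen, 7 of 32 CDK, cyclin and RB-E2F genes passed edgeR's adjusted p as higher and 6 as lower after IR, where 14.9% and 13.5% of all genes passed in these directions. E2F1 (-1.14, adjusted p = 0.0012 from edgeR) and E2F2 (-1.75, adjusted p = 0.000871) were the only called genes of the list. CCNB1 (-0.88) and CCNB2 (-0.94), both mitotic cyclin genes, were lower by less than 2-fold. RB1 (0.90, adjusted p = 0.0163 from edgeR) and RBL2 (0.95, adjusted p = 0.0222), which encode RB and its relative p130, were higher by less than 2-fold and are named here after their values were seen. Of the 31 regulators 8 passed as higher and 5 as lower, and BTG2 (2.02), MDM2 (1.33), TP73 (1.65) and KLF4 (1.57) were called.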
